A study of Homo sapiens with 16 samples.

Results

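CHI3L1 and CHI3L2 are a pair of secreted chitinase-like proteins, and both genes were followed in tumours of U87, an established human glioblastoma cell line. They were found by their gene symbol, 1 identifier each (ENSG00000133048 and ENSG00000064886), and both were listed in the table of each of 2 experiments. They make up 2 of 17318 listed genes in the first experiment and 2 of 18168 in the second. Luciferase-expressing U87 cells had been implanted in the brains of nude mice, and the mice received exosomes of MSC origin carrying a siRNA. The first experiment holds Myc1 tumours (siRNA 1 against human MYC, n = 3) and Scr1 tumours (scramble siRNA 1, n = 4). Its dosing began on day 28, into the retro-orbital sinus, and each injection, on alternate days, held 1e9 exosomes (100 µl). The second holds tumours labelled Myc2 (siRNA 2 against human MYC, n = 5) and tumours labelled Scr2 (scramble siRNA 2, n = 4), whose dose and first day no source used here gives. All 16 tumours, 1 per mouse by the titles, share the same cell line, labelled wild type, and the exosome vehicle. All were taken when the mouse met the criteria for euthanasia, so time under treatment can differ between mice. Nude mice lack T cells but keep other blood cells and their own brain cells. Both members had been selected on their log2 CPM in these same groups, so their group differences are given below as a description, with no test.

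CHI3L1, also known as YKL-40, and CHI3L2, also known as YKL-39, belong to glycoside hydrolase family 18 and bind chitin without cutting it, because the catalytic residue of the true chitinases has been lost. CHI3L1 is secreted by astrocytes, macrophages, neutrophils and chondrocytes, is often abundant in glioblastoma of the mesenchymal type, and acts through IL13RA2 with TMEM219, and through CD44 and other surface proteins. CHI3L2 was first described in chondrocytes and has also been found in gliomas. Both are used as markers of inflammation, and NF-κB, STAT3 and C/EBP factors are the regulators most often named for CHI3L1.

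The 250 bases before each start site are shown because the regulators described below are known to act on such sites. They are the RefSeq windows of build GRCh38.p14, which is not the build of the files. The CHI3L1 window is chr1:203186705-203186954 on the minus strand, and the CHI3L2 window, the first of 2 listed for that gene, is chr1:111227409-111227658 on the plus strand. Capitals mark the motif matches, and the sequences run 5′ to 3′ up to the base before the start site.
CHI3L1: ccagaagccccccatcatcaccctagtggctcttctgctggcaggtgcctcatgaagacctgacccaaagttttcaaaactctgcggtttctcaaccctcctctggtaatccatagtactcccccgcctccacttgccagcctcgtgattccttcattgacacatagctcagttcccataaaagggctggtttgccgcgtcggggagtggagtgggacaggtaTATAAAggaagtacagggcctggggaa
CHI3L2: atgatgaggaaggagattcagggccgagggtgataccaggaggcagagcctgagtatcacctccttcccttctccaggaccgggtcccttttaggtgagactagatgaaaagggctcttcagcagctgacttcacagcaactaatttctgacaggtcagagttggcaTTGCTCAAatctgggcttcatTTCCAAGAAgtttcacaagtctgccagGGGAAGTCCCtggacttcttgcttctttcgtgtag
Both strands were searched for kappa-B (the NF-κB element, by its name alone), C/EBP (TTGCNNAA), STAT (TTCNNNGAA), AP-1 (TGANTCA), the hypoxia cores ACGTG and GCGTG, the E-box CACGTG bound by MYC, the SP1 box GGGCGG and TATAAA. The CHI3L2 window held a C/EBP match beginning 83 bases before the start, a STAT match at 62 and a kappa-B match at 35 that reads on both strands, with no overlap among them. The CHI3L1 window held only TATAAA, beginning 27 bases before the start. Over 35116 windows of the same length, 9.05% held the C/EBP letters, 6.57% the STAT letters, 9.96% kappa-B and 10.7% TATAAA. The remaining motifs were in neither window, against 6.57% of windows for AP-1, 18.5% for ACGTG, 32.2% for GCGTG, 6.34% for CACGTG and 42.6% for GGGCGG. These matches describe letters in a window and say nothing of binding.

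The values are the authors' log2 CPM, where CPM is the read count scaled to a common library size, quantile-normalized within each experiment. Each sample of an experiment therefore has the same overall distribution, and levels were set side by side only within an experiment. Library sizes, estimated from the spacing of the lowest values, lay between 3.36 M (Scr1 replicate 3) and 24.0 M reads in the first experiment, and between 10.1 M (replicate 4 labelled Scr2) and 31.0 M in the second. On the first principal component, which held 31.3% and 43.8% of the variance, Scr1 tumours were spread from -61.5 (replicate 4) to 36.5 (replicate 3, the smallest library), and the libraries labelled Scr2 replicates 1 and 4 lay at -63.4 and -94.4, against 28.0 and 2.74 for replicates 2 and 3 of that label. MYC, the gene targeted, had 5.25, 4.73 and 3.84 log2 CPM in Myc1 tumours, against 4.41, 4.92, 5.66 and 6.75 log2 CPM in Scr1 tumours. The groups overlapped, with a difference of -0.83 ± 0.54 (SE; limma adjusted p = 0.996) that was -0.39 without Scr1 replicate 4. In the second experiment MYC had 5.79, 5.85, 5.56, 6.17 and 5.40 log2 CPM in tumours labelled Myc2, against 5.33, 5.14, 5.56 and 4.70 log2 CPM in tumours labelled Scr2. There the difference of 0.57 ± 0.21 (SE; limma adjusted p = 0.370) ran against the label, so directions drawn from these libraries are directions between labels. The defining astrocyte and glioma marker GFAP was low, between 1.26 and 3.11 CPM over all 16 tumours, and neither AQP4 nor S100B was listed. Of 10 astrocyte markers 7 nevertheless passed the filter, and GJA1, a gap junction protein, had 167 to 253 CPM in Myc1 tumours and 101 to 259 CPM in Scr1 tumours, and 136 to 573 CPM in tumours labelled Myc2 and 121 to 401 CPM in those labelled Scr2.

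CHI3L1 was higher in every tumour labelled for a MYC siRNA than in any scramble tumour of its experiment. It had 175, 118 and 863 CPM in Myc1 tumours, against 53.4, 112, 57.5 and 53.5 CPM in Scr1 tumours. The groups did not overlap, but the gap was narrow, between 118 CPM in Myc1 replicate 2 and 112 CPM in Scr1 replicate 2, and Myc1 replicate 3 stood far above the rest. Mean log2 CPM was 8.03 ± 1.52 in Myc1 tumours and 6.03 ± 0.52 in Scr1 tumours (SD, n = 3 and 4), a difference of 2.00 ± 0.69 (SE). Without Myc1 replicate 3 it was 1.13.

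In the second experiment CHI3L1 had 57.2, 114, 118, 15.8 and 52.3 CPM in tumours labelled Myc2, against 13.5, 11.04, 11.2 and 4.76 CPM in tumours labelled Scr2. These groups also did not overlap, with replicate 4 labelled Myc2 lying close to the scramble tumours. Mean log2 CPM was 5.85 ± 1.18 in tumours labelled Myc2 and 3.24 ± 0.67 in tumours labelled Scr2 (SD, n = 5 and 4), a difference of 2.61 ± 0.54 (SE), or 6.10-fold on the mean of logs. It was 2.37 without the libraries labelled Scr2 replicates 1 and 4.

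CHI3L2 was higher in Myc1 tumours than in Scr1 tumours, while the second experiment's groups overlapped. It had 86.3, 78.4 and 119 CPM in Myc1 tumours, against 25.3, 55.2, 60.9 and 33.5 CPM in Scr1 tumours. Every Myc1 tumour lay above every Scr1 tumour. Mean log2 CPM was 6.54 ± 0.32 in Myc1 tumours and 5.36 ± 0.60 in Scr1 tumours (SD, n = 3 and 4), a difference of 1.18 ± 0.30 (SE). In the second experiment it had 68.9, 65.6, 31.1, 35.2 and 63.0 CPM in tumours labelled Myc2, against 54.1, 22.8, 25.5 and 39.0 CPM in tumours labelled Scr2. Replicates 1, 2 and 5 labelled Myc2 exceeded every tumour labelled Scr2, and replicates 3 and 4 labelled Myc2 lay among the scramble tumours. Mean log2 CPM was 5.64 ± 0.55 in tumours labelled Myc2 and 5.06 ± 0.57 in tumours labelled Scr2 (SD, n = 5 and 4), a difference of 0.59 ± 0.32 (SE). Without the libraries labelled Scr2 replicates 1 and 4, which leaves 2 tumours of that label, it was 1.05.

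Among all genes tested, 1.94% of 13933 did not overlap in the higher direction between Myc1 and Scr1, and 1.4% of 14208 between the labels Myc2 and Scr2. Both members were chosen for these differences, so nothing is read from those shares. No gene passed limma's adjusted p under 0.05 in either experiment (0% called), while 3.48% and 13.4% of genes had an unadjusted p under 0.05 (1.96% higher and 1.52% lower in the first, 7% higher and 6.36% lower in the second). A difference above 0, of any size, was found for 49.5% and 48.2% of genes. In a fit over the 13656 genes measured in both experiments, 0 genes passed for the mean of the effects (smallest adjusted p = 0.300) and 0 for their difference between experiments (smallest adjusted p = 0.528). At an unadjusted p under 0.05 these counts were 1088 (7.97%) and 1195 genes (8.75%). Since the tissue is bulk tumour, fewer cells of a type and less RNA per cell cannot be told apart in any of these values.

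**Figure D1:**
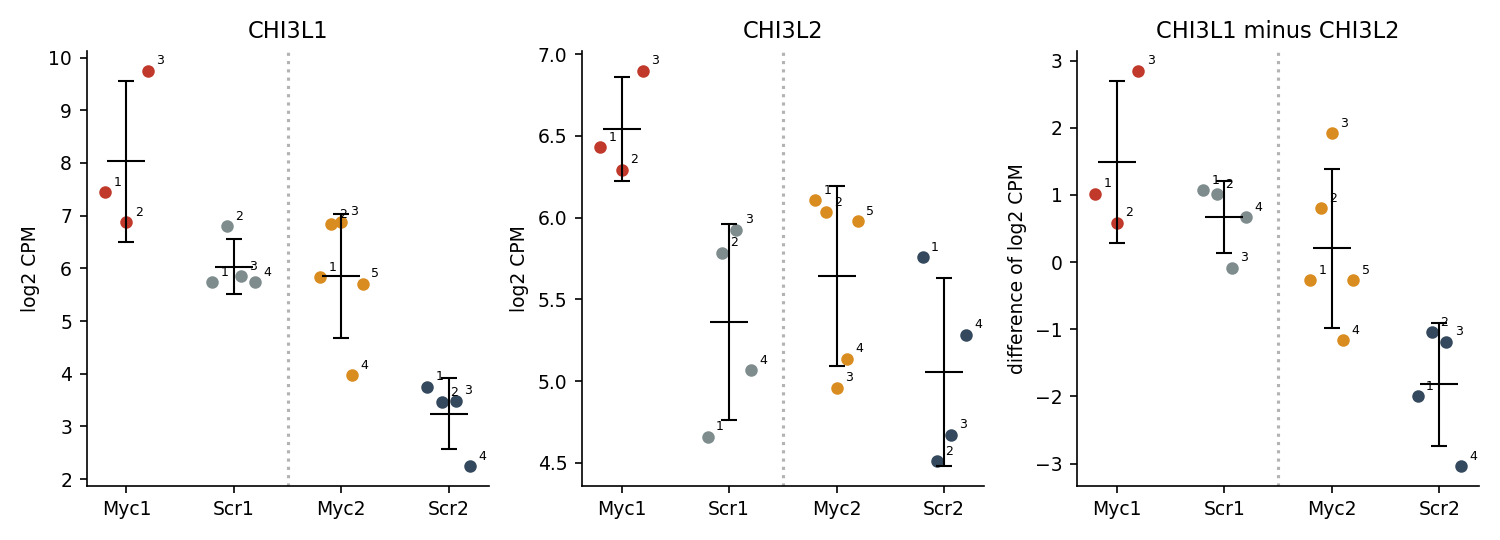
CHI3L1, CHI3L2 and their difference in each tumour, in log2 CPM (points, numbered by replicate; bars are mean ± SD), with the dotted line between the separately normalized experiments. CHI3L1 reaches 9.75 in Myc1 replicate 3, and its lowest value is 2.25 in replicate 4 labelled Scr2.

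The pair did not keep a fixed ratio. Per kilobase of exon (1792 bases for CHI3L1 and 2647 for CHI3L2, as the union of GENCODE exons), CHI3L1 was 3.00, 2.22 and 10.7 times as abundant as CHI3L2 in Myc1 tumours, against 3.12, 2.99, 1.40 and 2.35 times in Scr1 tumours. Per kilobase, CHI3L1 was thus the more abundant member in all 7 tumours of the first experiment. By CPM, with no division by length, CHI3L2 was slightly higher in Scr1 replicate 3 (60.9 against 57.5 CPM). In the second the CHI3L1 to CHI3L2 ratio per kilobase was 1.23, 2.58, 5.61, 0.661 and 1.23 in tumours labelled Myc2, against 0.369, 0.716, 0.650 and 0.180 in tumours labelled Scr2. CHI3L2 was the more abundant member per kilobase in all 4 tumours labelled Scr2 and in 1 of 5 labelled Myc2. By CPM it was also higher in replicates 1 and 5 labelled Myc2 (68.9 against 57.2 and 63.0 against 52.3 CPM). In these tumours the order of the pair turns on the length used. The log2 ratio differed between groups by 0.82 in the first experiment, 0.13 of it left without Myc1 replicate 3, and by 2.02 in the second, where it was 1.32 without the libraries labelled Scr2 replicates 1 and 4. The transcripts of both genes shared 0 windows of 20 or more bases, so reads of that length cannot come from either gene alike.

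CHI3L1 was the more variable member within groups. Its SD about the group means was 1.04 log2 units in the first experiment and 0.995 in the second, larger than that of 96.1% and 94.5% of tested genes. The SD of CHI3L2 was 0.506 and 0.560 log2 units, larger than that of 72.8% and 75.7% of genes. Estimated reads behind a CHI3L1 value ran from 48.2 (replicate 4 labelled Scr2) to 20744 (Myc1 replicate 3), and behind a CHI3L2 value from 205 (Scr1 replicate 3) to 2870 (Myc1 replicate 3). Within groups the correlation of CHI3L1 with the estimated library size was 0.212 and 0.227, and that of CHI3L2 was -0.465 and -0.713. With the first principal component it was 0.454 and 0.293 for CHI3L1, and 0.808 and -0.535 for CHI3L2. The sign of a component is arbitrary and was set in each experiment alone, so these signs cannot be compared between experiments. The part of depth and of these components in the results was not tested.

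After centring on group means, the correlation of the members with each other did not pass in either experiment. Over the 7 tumours of the first experiment Pearson's r was 0.562 and Spearman's rho 0.571 (exact two-sided permutation within groups, p = 0.0764 and 0.0556, both 0.229 adjusted over 6 tests). Over the 9 tumours of the second, r was 0.126 and rho 0 (exact permutation p = 0.747 and 1, adjusted 0.896 and 1). Without the 2 tumours farthest from the median of centred CHI3L1, r was 0.304 over 5 tumours of the first experiment and -0.261 over 7 of the second, so neither value held without them. Over all 16 tumours centred on the 4 groups, r was 0.301 and rho 0.274 (exact permutation p = 0.261 and 0.289, both 0.433 adjusted), and r fell to 0.0950 without the 2 farthest. Without replicate 4 labelled Myc2, r in the second experiment was -0.317.

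**Figure D2:**
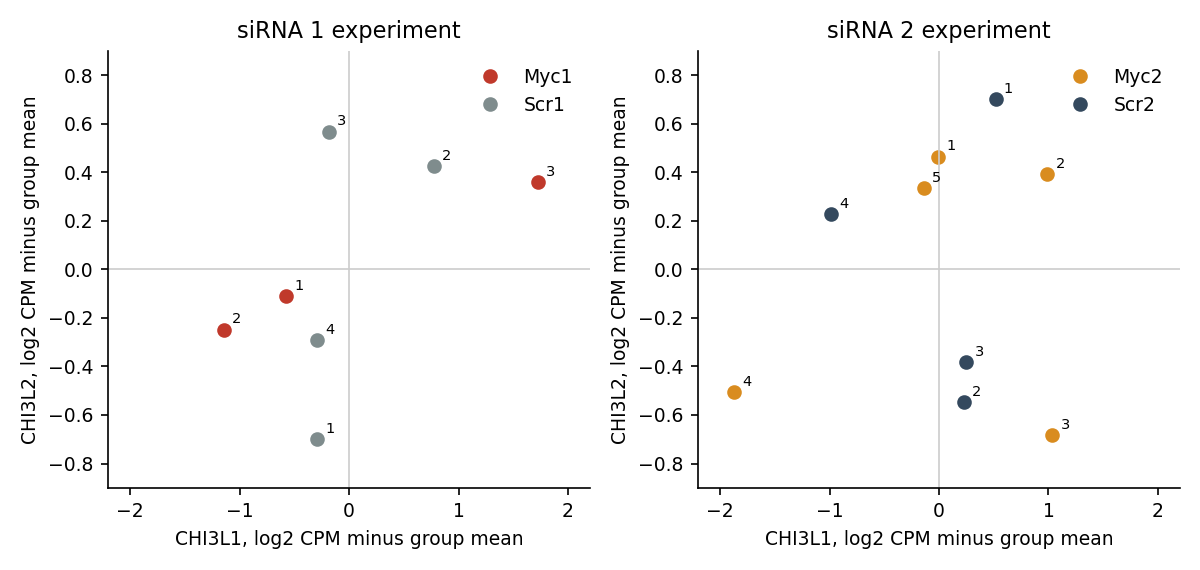
CHI3L2 against CHI3L1 in each tumour, both as log2 CPM minus the group mean, with 1 panel per experiment and points numbered by replicate. In the first experiment Myc1 replicate 3 lies highest on CHI3L1 (1.72), and in the second the tumour labelled Myc2 replicate 3 is high in CHI3L1 (1.04) and lowest in CHI3L2 (-0.68).

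Other members of glycoside hydrolase family 18 showed no called difference. Of 4 other measured members, 3 were higher and 1 lower in Myc1 than in Scr1 tumours. In tumours labelled Myc2, 1 was higher and 3 lower than in those labelled Scr2. At an unadjusted p under 0.05 there were 0 in either, against 3.48% and 13.4% of all genes. Of all genes, 49.5% and 48.2% were higher by any amount. A list of 4 genes can hold 0 at such shares, so nothing is read from these counts. CTBS, the lysosomal di-N-acetylchitobiase, was the only one of these members whose first-experiment groups did not overlap, as for 1.94% of all genes in that direction. It had 15.83 to 18.7 CPM in Myc1 tumours against 8.35 to 15.81 CPM in Scr1 tumours, so the groups all but touched. The difference was 0.56 ± 0.29 (SE, limma adjusted p = 0.996). CHID1, a chitinase-domain protein sorted to lysosomes, differed by 0.32 ± 0.22 in the first experiment and by -0.25 ± 0.26 in the second (SE). CHIA, the acidic chitinase, and OVGP1, the oviductal glycoprotein, lay between 0.417 and 4.74 CPM and differed by less than their SE in both experiments. CHIT1, the macrophage chitinase, was not listed in either table.

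Genes of proteins that bind CHI3L1 were measured as RNA only, and none showed a called difference. Not all were well expressed, KDR lying between 0.17 and 1.82 CPM over all tumours. Of 12 receptors and partners, 6 were higher and 6 lower in Myc1 than in Scr1 tumours. In tumours labelled Myc2, 9 were higher and 3 lower than in those labelled Scr2. At an unadjusted p under 0.05 there were 0 in either, against 3.48% and 13.4% of all genes. Of all genes, 49.5% and 48.2% were higher by any amount. A list of 12 genes can hold 0 at such shares, so nothing is read from these counts. IL13RA2, the receptor subunit best known for CHI3L1, had 46.8 to 118 CPM in Myc1 tumours (median 77.3) and 53.1 to 121 CPM in Scr1 tumours (median 95.4). It differed by -0.21 ± 0.33 there and by -0.22 ± 0.34 in the second experiment (SE; limma adjusted p = 0.996 and 0.739). Its co-receptor TMEM219 differed by 0.26 ± 0.24 and -0.24 ± 0.29, and CD44, the hyaluronan receptor, by -0.03 ± 0.23 and 0.42 ± 0.25 (SE). LGALS3, which encodes galectin 3, had 503 to 1303 CPM in Myc1 tumours against 446 to 599 CPM in Scr1 tumours, and differed by 0.52 ± 0.29 there and 0.32 ± 0.31 in the second experiment (SE). The LGALS3 difference was 0.10 without Myc1 replicate 3, and in the second experiment 0.13 without replicate 3 labelled Scr2 and 0.62 without replicate 1 labelled Scr2. PTGDR2, a prostaglandin receptor reported in the mouse as a further CHI3L1 receptor, was lower by its mean in both, at -0.88 ± 0.43 and -0.28 ± 0.46 (SE), the second being -0.04 without replicate 2 labelled Scr2. Directions of IL13RA2, TMEM219 and CD44 changed in at least 1 experiment when particular tumours were left out.

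Regulators of CHI3L1 were set out in 3 lists of 12 measured genes each. Of the NF-κB genes, 7 were higher and 5 lower in Myc1 than in Scr1 tumours, and 2 of them, both higher, had an unadjusted p under 0.05, against 3.48% of all genes. In tumours labelled Myc2, 10 were higher and 2 lower than in those labelled Scr2, with 6 higher and 1 lower at that level, against 13.4% of all genes. Median differences of the list were 0.04 and 0.81, against 0.00 and -0.02 over all genes. IL1R1, the interleukin 1 receptor, had no overlap between groups in the first experiment and none in the second, against 1.94% and 1.4% of genes that lay wholly higher. It had 97.0, 69.0 and 69.9 CPM in Myc1 tumours, against 21.6, 67.0, 22.9 and 31.7 CPM in Scr1 tumours. It had 109, 57.1, 47.7, 74.8 and 47.6 CPM in tumours labelled Myc2, against 35.7, 41.3, 28.96 and 28.95 CPM in tumours labelled Scr2. The differences were 1.28 ± 0.35 and 0.94 ± 0.25 (SE, limma adjusted p = 0.996 and 0.370), so neither passed. Within groups the r of IL1R1 with CHI3L1 was 0.26 and -0.24. BCL3 and TNFAIP3 of the same list had smaller p in the second experiment. They differed there by 1.27 ± 0.23 and 2.64 ± 0.66 (SE, limma adjusted p = 0.370 for both). In the first experiment they differed by 0.18 ± 0.33 and 0.58 ± 0.44 (SE), with overlapping groups.

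The 2 other lists differed mostly in the second experiment. Of 12 IL6, STAT3 and C/EBP genes, 9 were higher and 3 lower in Myc1 tumours, with 0 at an unadjusted p under 0.05, and 12 higher and 0 lower in tumours labelled Myc2, with 6 at that level. Of all genes, 3.48% and 13.4% had such a p in the first and second experiment, and 49.5% and 48.2% were higher by any amount. CEBPB, a C/EBP factor, had 83.3, 92.9, 102, 81.4 and 86.3 CPM in tumours labelled Myc2, against 63.7, 33.8, 28.0 and 36.5 CPM in tumours labelled Scr2. Its groups did not overlap there, as for 1.4% of genes in that direction, with a difference of 1.21 ± 0.22 (SE; limma adjusted p = 0.370), while in the first experiment it was 0.26 ± 0.22 with overlapping groups. STAT3 differed by 0.59 ± 0.17 in the second experiment and by 0.05 ± 0.21 in the first (SE). Of 12 other regulators, such as the AP-1 factors and HIF1A, 4 were higher and 8 lower in Myc1 tumours, and 10 higher and 2 lower in tumours labelled Myc2, with 0 and 5 at an unadjusted p under 0.05, against the same 3.48% and 13.4% of all genes. Whether these differences differed between the experiments was tested over all genes above, and none passed.

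**Figure D3:**
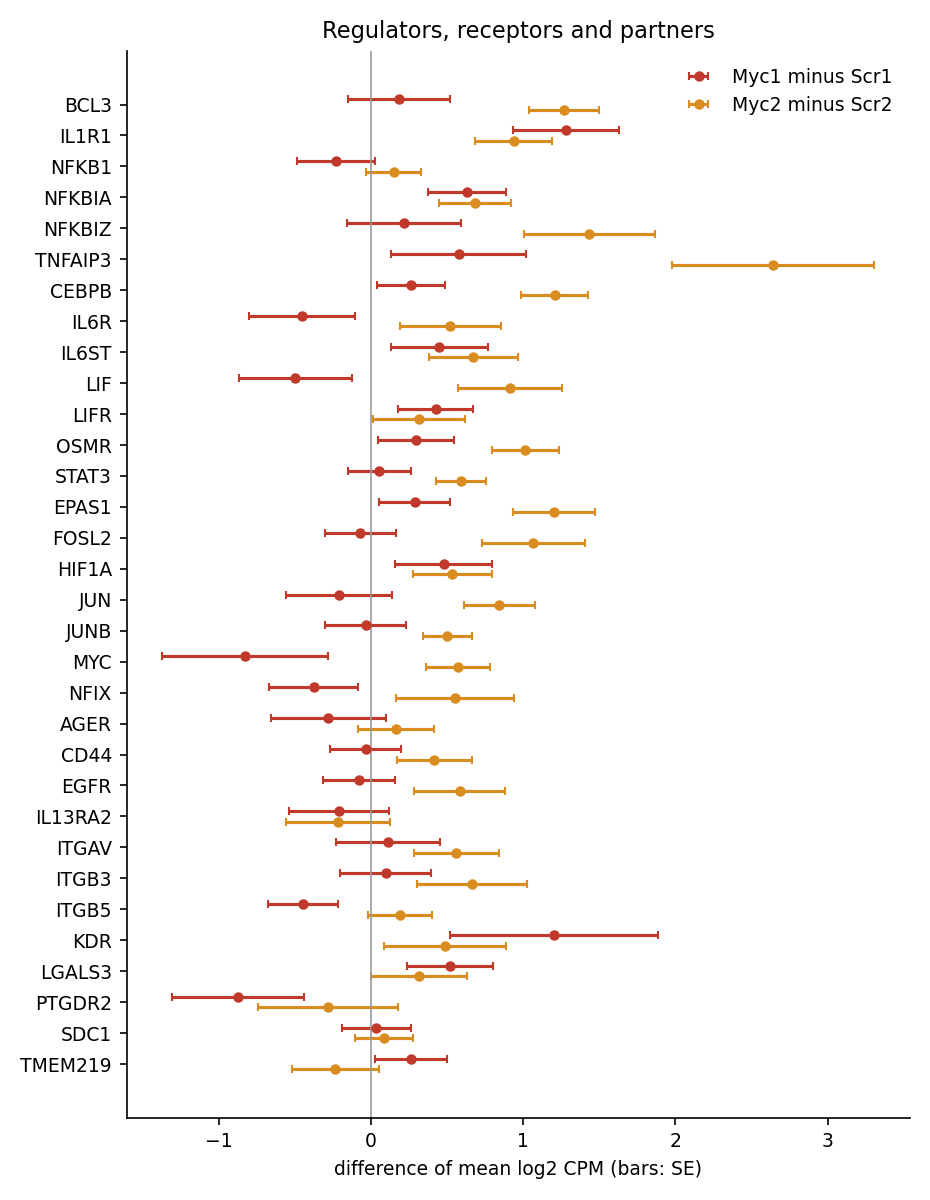
Differences in mean log2 CPM between MYC siRNA and scramble tumours for named regulators, receptors and partners of CHI3L1 in both experiments, with SE bars. IL1R1 lies well above 0 in both (1.28 and 0.94), and TNFAIP3 has the largest value drawn (2.64, second experiment).

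Within groups, few genes tracked CHI3L1 past the threshold. In the first experiment 1 of 13932 genes (0.00718%) covaried with CHI3L1 at a limma adjusted p under 0.05, and in the second 0 of 14207 did (0%), with 2.02% and 1.74% at an unadjusted p under 0.05. The 1 gene was ENSG00000269955, listed as LUC7L2, with r = -0.984 (adjusted p = 7.2e-05). It had 3.17, 5.72 and 0.0333 CPM in Myc1 tumours, against 14.2, 1.23, 16.1 and 25.8 CPM in Scr1 tumours, a spread reaching the lowest values of the table. In the second experiment its r with CHI3L1 was 0.230, and reads of this gene may be shared with an overlapping gene, so its values are uncertain. Over both experiments together, 0 of 13655 genes were called (1.41% at an unadjusted p under 0.05).

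Genes most like CHI3L1 were ranked by the weaker of their 2 within-group correlations, over 7 and 9 tumours. Being picked for that likeness, they carry no test, and all correlations share the libraries. The 8 most alike were LRRC37BP1, MCTP2, RP11-61A14.3, EGFL8, RP4-758J18.13, THBS4, APOE and GSTT2B, and the 4 most opposite were BCHE, TTC5, FAXDC2 and DYM. Of 13655 genes, only LRRC37BP1 had r above 0.8 in both experiments, and 2 had r below -0.8. APOE, the lipid carrier of astrocytes and macrophages, had r = 0.665 (rho 0.714) in the first experiment and 0.948 (rho 0.950) in the second. It had 9.82, 26.9 and 72.3 CPM in Myc1 tumours, against 4.10, 5.62, 8.81 and 3.93 CPM in Scr1 tumours. It had 11.4, 19.1, 16.1, 2.64 and 6.48 CPM in tumours labelled Myc2, against 4.17, 2.48, 4.51 and 1.00 CPM in tumours labelled Scr2. The lowest APOE value labelled Myc2 belongs to replicate 4, which was also lowest of its group in CHI3L1.

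BCHE, the butyrylcholinesterase, ran the other way with r = -0.885 and -0.819. It had 5.54, 6.52 and 0.364 CPM in Myc1 tumours, against 9.46, 9.40, 5.75 and 10.4 CPM in Scr1 tumours. It had 3.43, 3.44, 3.07, 10.7 and 7.87 CPM in tumours labelled Myc2, against 10.3, 9.48, 8.07 and 11.1 CPM in tumours labelled Scr2. The first-experiment r of APOE and BCHE rested on Myc1 replicate 3, and without it r was -0.18 for APOE and 0.03 for BCHE. Without the same tumour r was 0.39 for LRRC37BP1 and 0.61 for MCTP2, a membrane protein with C2 domains. It was 0.28 for RP11-61A14.3 and 0.50 for THBS4. For other genes ranked most alike it turned, to -0.30 for EGFL8, -0.53 for RP4-758J18.13 and -0.78 for GSTT2B. Of the most opposite genes, TTC5 was left at -0.09 and DYM at -0.44, while FAXDC2 stayed at -0.56 or below with any 1 tumour left out. In the second experiment, leaving out any 1 tumour left r between 0.912 and 0.969 for APOE and between -0.883 and -0.571 for BCHE.

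More genes tracked CHI3L2 at the unadjusted level, and few passed the threshold. In the first experiment 1 of 13932 genes (0.00718%) covaried with it at a limma adjusted p under 0.05, RP11-78A19.3 (r = 0.931, adjusted p = 0.0469), and in the second 0 of 14207 did (0%). At an unadjusted p under 0.05 these shares were 8.68% and 12.7%. The within-group r of CHI3L2 with the first principal component, 0.808 and -0.535 (signs not comparable between experiments), stands beside these shares, and its part in them was not tested. Over both experiments together 0 of 13655 genes were called (0%), with 20% at an unadjusted p under 0.05 and a smallest adjusted p of 0.0698. Without the libraries labelled Scr2 replicates 1 and 4, 17.9% of genes were at that level for CHI3L2 and 1.95% for CHI3L1. Leaving these libraries out of that fit was chosen after the data were seen. The 8 most alike were GLRX, SERPINA6, ZMYM6NB, TNFRSF10C, ENSG00000273221, GRSF1, GABARAPL2 and ANAPC16, and the 4 most opposite were STIM2, ELF4, E2F2 and DHX8. Of 13655 genes and CHI3L2 itself, 13 had r above 0.8 in both experiments, CHI3L2 being 1 of these 13. Those with r below -0.8 in both numbered 40.

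GLRX, a glutaredoxin that reduces protein disulphides, had r = 0.978 with CHI3L2 in the first experiment and 0.881 in the second. It had 81.8, 73.1 and 99.3 CPM in Myc1 tumours, against 36.0, 72.1, 86.0 and 40.8 CPM in Scr1 tumours, in the same order as CHI3L2 once centred (rho 1). It had 65.5, 58.6, 38.9, 49.1 and 72.2 CPM in tumours labelled Myc2, against 84.1, 35.2, 58.6 and 71.5 CPM in tumours labelled Scr2. Leaving out any 1 tumour left its r between 0.970 and 0.990 in the first experiment and between 0.840 and 0.927 in the second. STIM2, a calcium sensor of the endoplasmic reticulum, had r = -0.978 and -0.951, and stayed between -0.988 and -0.932 in both when 1 tumour was left out.

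E2F2, a transcription factor of S-phase entry, had r = -0.903 and -0.890 with CHI3L2. In the fit over both experiments, the 12 genes with the smallest p included INCENP, a mitotic passenger protein (r = -0.841), POLE, a replicative DNA polymerase (r = -0.852), and MKI67, the Ki-67 proliferation marker (r = -0.809). These 3 were chosen after their values were seen. Their adjusted p was 0.0698, so none passed, and 20% of all genes had an unadjusted p under 0.05 in that fit. MKI67 had 405, 382 and 226 CPM in Myc1 tumours, against 675, 528, 166 and 591 CPM in Scr1 tumours. It had 408, 757, 893, 999.8 and 383 CPM in tumours labelled Myc2, against 350, 1485, 806 and 327 CPM in tumours labelled Scr2. With CHI3L1 the r of MKI67 was -0.294 and 0.087.

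**Figure D4:**
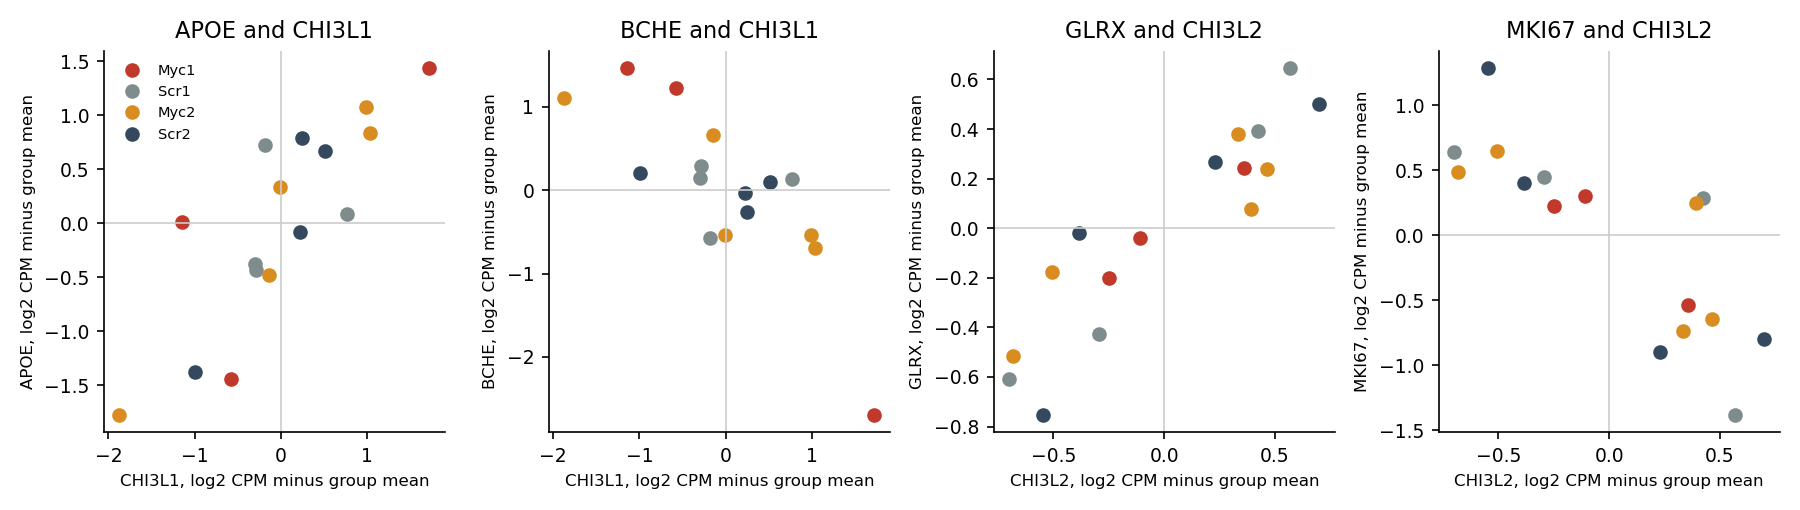
Centred log2 CPM of 4 genes against CHI3L1 or CHI3L2 in 16 tumours coloured by group, each value minus its group mean. APOE goes up and BCHE down with CHI3L1 (r = 0.831 and -0.799 over 16 tumours), and GLRX goes up and MKI67 down with CHI3L2 (r = 0.917 and -0.809).

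Gene lists tied to both proteins were read the same way, by how many members had a positive r, against 47.8% and 50.4% of all genes for CHI3L1 and 50.2% and 49.1% for CHI3L2. Hypoxia genes had a positive r with CHI3L2 in 14 of 15 and 15 of 15 measured genes, with medians of 0.39 in both experiments. With 1 tumour left out, these medians ran from 0.24 to 0.55 in the first experiment and from 0.04 to 0.63 in the second. The lowest were without Myc1 replicate 3 (12 of 15 genes positive) and without replicate 3 labelled Myc2 (10 of 15). The second-experiment median thus rested largely on 1 tumour. With CHI3L1 the hypoxia genes had a positive r in 15 of 15 genes in the first experiment (median 0.68) and in 2 of 15 in the second (median -0.22). Single tumours decided both of these: the median was 0.09 without Myc1 replicate 3, and 0.11 without replicate 3 labelled Myc2, with 10 and 12 of 15 genes positive. CA9, a carbonic anhydrase induced by low oxygen, had r = 0.877 and -0.233 with CHI3L1, and 0.494 and 0.629 with CHI3L2. Between groups, 10 hypoxia genes were higher and 5 lower in Myc1 than in Scr1 tumours (1 at an unadjusted p under 0.05), and 15 higher and 0 lower in tumours labelled Myc2 (9 at that level), against 3.48% and 13.4% of all genes at that level. VEGFA stands in this list and in the next.

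The list of co-secreted and acute-phase genes had 11 measured members, among them SOD2, which is not a secreted protein. Of these, 8 were higher and 3 lower in Myc1 tumours, 3 of them higher at an unadjusted p under 0.05, and 7 higher and 4 lower in tumours labelled Myc2, with 5 higher at that level, against 1.96% and 7% of all genes. C3, the central complement protein, had 14.9, 15.4 and 57.9 CPM in Myc1 tumours, against 1.32, 5.77, 2.78 and 3.53 CPM in Scr1 tumours. Those groups did not overlap, as for 1.94% of genes in that direction (difference 3.01 ± 0.56, SE; limma adjusted p = 0.731). In the second experiment C3 had 37.0, 370.3, 386, 23.4 and 25.9 CPM in tumours labelled Myc2, against 9.71, 91.1, 0.680 and 16.2 CPM in tumours labelled Scr2, and these groups overlapped (difference 3.00 ± 1.30, SE; limma adjusted p = 0.370). That difference was 1.71 without replicate 3 labelled Scr2 and 4.07 without replicate 2 labelled Scr2. Its r with CHI3L1 was 0.848 and 0.414. CXCL8, a neutrophil-attracting chemokine, had r = 0.931 and -0.121 with CHI3L1, and neither it nor C3 passed the adjusted threshold for covariation.

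Among receptors and partners, SDC1, a heparan sulphate proteoglycan that CHI3L1 binds, had r = -0.972 to CHI3L1 in the first experiment (between -0.992 and -0.869 with 1 tumour left out). SDC1 was picked after its value was seen, and it did not pass for covariation (limma adjusted p = 0.99995). In the second its r was -0.298. NFKBIA, the NF-κB inhibitor that NF-κB itself induces, had r = 0.823 and -0.279, and LGALS3 0.798 and -0.209. Median r of the NF-κB list with CHI3L1 was 0.32 and -0.07, that of the IL6, STAT3 and C/EBP list 0.05 and 0.23, and that of receptors and partners 0.02 and 0.07. Each of these medians changed sign in both experiments or in 1 when a single tumour was left out, to -0.13 without Myc1 replicate 3 for the NF-κB list and to -0.03 without replicate 4 labelled Scr2 for the IL6 list.

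**Figure D5:**
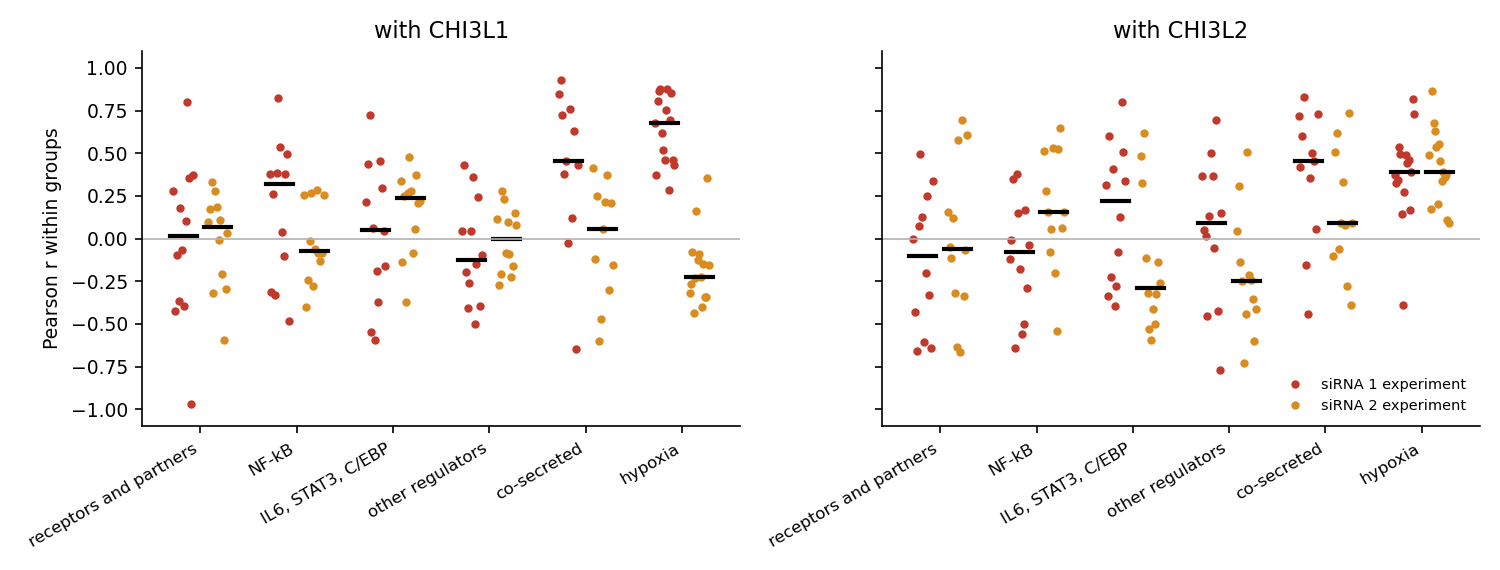
Within-group Pearson r of every measured list gene with CHI3L1 (left) and CHI3L2 (right), over 7 tumours of the first experiment and 9 of the second, with black bars at the medians. Most hypoxia genes lie above 0 with CHI3L2 in both (medians 0.39 and 0.39), and on opposite sides of 0 with CHI3L1 (0.68 and -0.22). Without replicate 3 labelled Myc2 the second-experiment medians were 0.04 with CHI3L2 and 0.11 with CHI3L1.

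Markers of the other cells known to secrete these proteins were listed in part, as human genes only. Of 8 neutrophil markers 1, ELANE, was listed, at 0.176 to 1.29 CPM in Myc1 tumours and 0.154 to 0.308 CPM in Scr1 tumours, and at most 0.758 CPM in the second experiment. Of 11 macrophage and microglia markers, CD68 and CSF1R passed the filter, CD68 at 314 to 383 CPM in Myc1 tumours and 231 to 329 CPM in Scr1 tumours, and CD163, AIF1, TYROBP, CX3CR1 and P2RY12 were not listed. The summed level of the 5 listed macrophage markers was 333 to 404 CPM in Myc1 tumours and 247 to 348 CPM in Scr1 tumours, and 178 to 277 CPM in tumours labelled Myc2 and 165 to 270 CPM in those labelled Scr2. The summed level of the 8 listed astrocyte markers was 379 to 508 CPM in Myc1 tumours and 192 to 449 CPM in Scr1 tumours, and 262 to 958 CPM in tumours labelled Myc2 and 230 to 553 CPM in those labelled Scr2. In the chondrocyte list, 2 of 10 genes passed, and COL2A1, ACAN and COMP were not listed. Only human genes are in the tables, so mouse Chi3l1 and the mouse marker genes of the host were not analysed here. The marker values above therefore cannot be read as amounts of host cells. The part of any host or stromal cell in the results was not tested.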

How the data were processed

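RNA sequencing of 16 xenograft tumours was analysed from 1 deposited table per experiment. Builds hg19 and mm10 and the tools Picard, STAR 2.6.0b and bcl2fastq 2.20.0 are named, per the submitters' processing notes. No source used here gives the counter, the annotation or how mouse reads were handled. The authors deposited log2 values per human Ensembl gene. That they are log2 CPM was read from the values: taken back from log2 they summed to 995054 to 998392 per sample. Sorted values coincide between samples, so they were quantile-normalized within each table, which hides a shift shared by most genes. RNA had an integrity number of at least 7.2, per the labels' protocols.

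Genes with at least 1 CPM in 3 (first experiment) or 4 (second) samples were fitted with limma 3.58.1 in R 4.3.3 (eBayes, trend = TRUE, robust = TRUE) on these log2 values, in place of the planned log2(value + 1), with Benjamini-Hochberg adjustment over all genes and a threshold of 0.05. Covariation was fitted with the member's level and a term for each group, and correlations were computed on group-centred values. For a symbol with several identifiers, that with the highest mean was used, and CXCL8 was found by its identifier. Library sizes were estimated from the steps 2 to 20 of the lowest values of each sample, and such estimates were off by at most 4.98% and 3.11% on simulated counts; they cover counting only. Besides library sizes, only the fits of group differences and of covariation with CHI3L1 were tested on simulated data. The genes named were both members, all measured members of the family and receptor lists, up to 4 genes of each other list with the smallest p per experiment, and the 8 most and 4 least alike; MYC and genes given per tumour for illustration (CXCL8, SDC1, NFKBIA, CA9, INCENP, POLE and MKI67) were partly chosen after their values were seen. The members and lists were chosen with earlier results of these data known. Sequences were taken from RefSeq windows. P-values measure the spread between mice of 1 experiment.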

Additional observations from a re-analysis of the deposited data

Results flagged for a closer look

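In groups of 4 or 5 tumours, single values stood far from the others by Dixon's gap criterion, which chance alone meets in about 5% of groups. The criterion was applied to both members, their log2 ratio and every named list gene, so several such values can arise by chance alone. CHI3L1 was 6.80 log2 CPM in Scr1 replicate 2, against 5.74 to 5.85 in the other Scr1 tumours. SOX9 was 3.65 log2 CPM in Scr1 replicate 1, against 5.06 to 5.28 in the others. KDR was -0.17 log2 CPM in the library labelled Myc2 replicate 1, against 0.58 to 0.87 in the others. IL13RA2 was 4.99 log2 CPM in the library labelled Scr2 replicate 2, against 6.28 to 6.43 in the others.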

How the results depend on the processing

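No paired analysis was possible because replicate numbers come from the order of the samples and pair nothing. The direction of CHI3L1 and CHI3L2 between groups held under every alternative run: other pseudocounts, filters and limma settings, mean of identifiers, and each tumour left out. Leaving out 1 tumour moved CHI3L1 between 1.13 and 2.57 in the first experiment and between 2.28 and 3.08 in the second, and CHI3L2 between 0.95 and 1.37 and between 0.41 and 0.82. Their log2 ratio moved between 0.13 and 1.27, and between 1.59 and 2.36.

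The correlation of the pair was 0.823 and 0.483 when not centred on groups, and ran from 0.475 to 0.757 and from -0.317 to 0.459 with 1 tumour left out. Called genes numbered 0 to 2 for Myc1 and 0 to 9 for the label Myc2 with 1 tumour left out (9 without replicate 3), 1 at a 5 CPM filter for Myc1, and 2 without the libraries labelled Scr2 replicates 1 and 4. At an unadjusted p under 0.05, leaving out 1 tumour gave 0.365 (without Myc1 replicate 3) to 1.98 times (without Scr1 replicate 3) as many genes, and 0.374 (without Scr2 replicate 4) to 2.04 times (without Scr2 replicate 2). Genes covarying with CHI3L1 in the first experiment numbered 1 to 6 with 1 tumour left out, 2 at the 5 CPM filter, 2 on log2(CPM + 0.1), 11 not centred and 0 in 1 fit over both tables. For CHI3L2 these were 0 to 12 with 1 left out, 0 at the 5 CPM filter, with plain limma, on log2(CPM + 1), with no filter and in 1 fit, and 3 not centred; in the second experiment 1 without the 2 libraries.

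Of 1073 values of 75 named results, 1034 kept their direction and side, 37 turned and 2 became significant: CEBPB (adjusted p 0.0236 without the 2 libraries) and VEGFA (0.0440 without replicate 3 labelled Myc2). With 1 tumour left out, first-experiment differences ran from -0.55 to 0.066 for AGER, -0.32 to 0.16 for CD44, -0.29 to 0.55 for CHIA, -0.24 to 0.10 for EGFR, -0.54 to 0.13 for IL13RA2, -0.12 to 0.44 for ITGAV, -0.11 to 0.27 for ITGB3 (-0.11 by mean of identifiers), -0.61 to 0.45 for OVGP1, -0.092 to 0.28 for SDC1 and -0.51 to 0.12 for SOX9. In the second they ran from -0.0058 to 0.27 for AGER, -0.51 to 0.10 for CHIA and -0.13 to 0.23 for MATN3. Without the libraries labelled Scr2 replicates 1 and 4, CHIA was 0.19, CHID1 0.0056, IL13RA2 0.16, KDR -0.050, MATN3 -0.10, SDC1 -0.012, SOX9 -0.0074 and TMEM219 0.38. The cause was not tested.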
